A study of Mus musculus with 5 samples.

Results

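The mitochondrial ribosomal proteins studied here were the protein-coding genes whose GENCODE M21 symbol begins with Mrpl or Mrps followed by a digit. This rule found 78 genes among the 47729 genes of the count table, of which 21620 were protein-coding. Their mRNAs were measured by RNA sequencing in the brain of 5 male C57BL/6 mice, an inbred laboratory strain, at an age of 30 months. The mice formed a single group with no treatment named in the labels, and no other age was analysed here. They are called by their label numbers, mice 7, 8, 9, 10 and 11, and all values given as a series follow that order. Each library carries only a sample number, so SDs and p-values reflect how these samples differed, and some of that may be technical.

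Mitochondria have a ribosome of their own, which translates the few mRNAs of the mitochondrial genome into core subunits of the respiratory chain and ATP synthase. Its rRNAs are made inside the organelle, while all of its proteins are encoded in the nucleus, translated in the cytosol and imported. The large subunit forms peptide bonds and holds the exit tunnel, and the small subunit reads the mRNA. Many of the proteins have relatives in the bacterial ribosome, and the others arose with mitochondria. Neurons depend heavily on the respiratory chain that this ribosome helps to build.

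Of the 78 genes, 77 had counts in every mouse and a mean of at least 1 RPKM (a read count scaled to library total and to the transcript length that the authors used), against 78.5% of the 16318 genes whose mean count reached 10. In 21 of the 77 the mean was under 5 RPKM and in 30 it was at least 10 RPKM. The median of the 77 means was 8.31 RPKM, with quartiles at 4.9 and 11.8 RPKM. Together they held 0.138, 0.143, 0.133, 0.134 and 0.152% of all counts in mice 7 to 11, a mean of 0.14% ± 0.00755 (SD, n = 5). In bulk brain RNA, fewer cells of a type and less RNA per cell cannot be told apart.

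The libraries held between 15392006 and 18723390 counts, the most in mouse 11. All 5 markers of neurons, astrocytes, oligodendrocytes, microglia, endothelium, choroid plexus and erythroid cells had a mean count of at least 10. Their highest members were Snap25 (298 RPKM), Slc1a2 (305 RPKM), Mbp (346 RPKM), Ctss (69.1 RPKM), Slc2a1 (35.2 RPKM), Ttr (404 RPKM) and Hbb-bs (62.0 RPKM). Mouse 11 also stood apart in how its levels followed base composition, which is described with the results it touches.

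Among proteins of the large subunit, the most abundant mRNA was that of Mrpl41, a mitochondria-specific protein, with 30.7, 36.1, 28.8, 30.5 and 38.0 RPKM. It had the highest mean of all 77 genes, 32.8 ± 4.0 RPKM (SD, n = 5), and its lowest mouse lay above the mean of every other member. Mrpl4, a relative of bacterial L4, followed with 20.8, 17.5, 19.2, 24.5 and 35.4 RPKM. Its mean of 23.5 ± 7.14 RPKM was raised by mouse 11, and the ranges of Mrpl4 and Mrpl41 overlapped. Mrpl28 averaged 21.6 ± 2.85 RPKM.

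Mrpl42, a mitochondria-specific protein, had 33.0, 20.7, 20.4, 21.7 and 19.97 RPKM, so that mouse 7 was high and the other mice were nearly level. Its place near the top rests on transcript length. The deposited RPKM imply 666 bases for Mrpl42, whereas its annotated exons span 3682 bases, over which the mean would be 4.19 RPKM instead of 23.2. The length used by the authors was within 1% of the annotated one for 57 of the 77 genes and was far shorter for 8, at less than 0.5 of it, among them Mrps16, Mrps30, Mrpl32 and Mrpl23. Levels of these genes are therefore less certain than their counts, and Mrps16 and Mrps30 would have 3.09 RPKM each over their annotated exons, against 15.7 and 12.9 RPKM as given. Mrpl4 is another of the 8 and would have 11.5 RPKM, and Mrpl23 would have 0.71 RPKM, under 1 and the lowest of the 77, while Mrpl41 would keep its value and its place.

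At the lower end of the large subunit, Mrpl47 had 2.18, 1.37, 0.982, 1.35 and 1.14 RPKM, and Mrpl33 and Mrpl23 averaged 1.50 ± 0.255 and 1.95 ± 0.430 RPKM, the value of Mrpl23 resting on the shorter length. Mrpl1, whose bacterial relative forms the mobile stalk where spent tRNA leaves, had 2.67, 2.56, 1.80, 2.02 and 0.933 RPKM, with mouse 11 lowest. These 4 genes overlapped one another in their ranges, and no order of all 4 held in every mouse.

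Mrpl53 had 0 counts in all 5 mice, and a count of 0 allows up to 3 by counting error alone. It lies on chromosome 6 from 83109040 to 83109939 (GRCm38, plus strand), and 695 of its 790 exon bases (88.0%) are shared with other annotated genes. One of them, the protein-coding Gm42688 on the same strand, had 28, 7, 22, 33 and 18 counts. A 0 in this table need not be a low level: the respiratory chain mRNAs mt-Co2 and mt-Co3 were also listed at 0 in every mouse, beside 102277 to 111093 counts for mt-Co1. No level of Mrpl53 can be given from these counts, and the part of the overlap in the zeros was not tested.

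**Figure D1:**
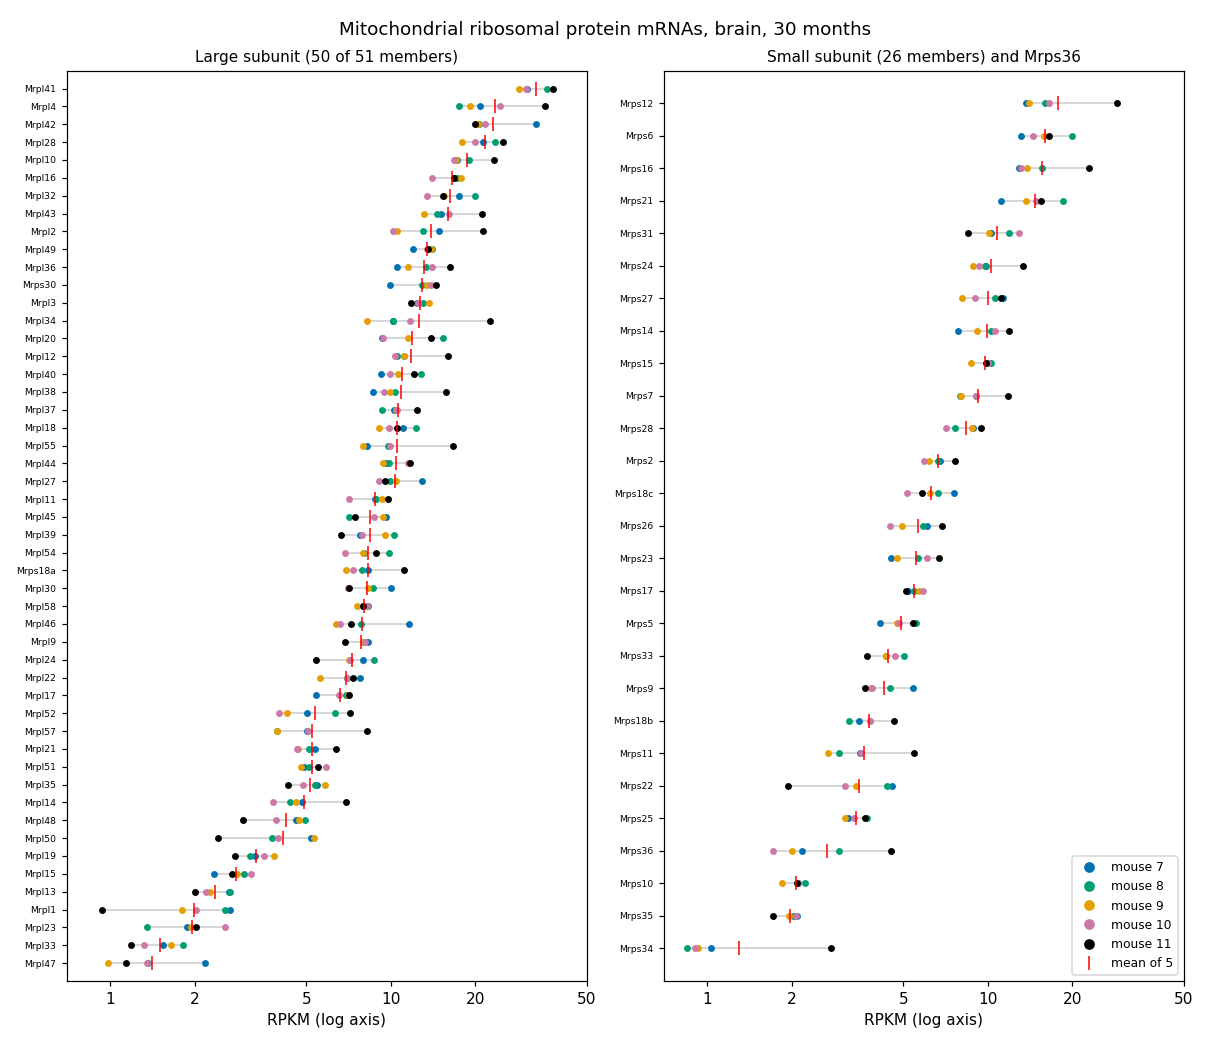
RPKM (log axis) of the 77 members with counts, each row a gene ordered by its mean, with a point for each mouse, a red bar at the mean of 5 and a grey line over the range; large-subunit genes are on the left, small-subunit genes and Mrps36 on the right. Mrpl41 sits at the top with 28.8 to 38.0 RPKM, Mrps34 at the bottom with 0.850 to 2.77 RPKM, and mouse 11 (black) is the highest point in many rows.

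In the small subunit, Mrps12 was most abundant. Its product is the relative of bacterial S12, which sits at the decoding centre, and its mRNA had 13.7, 16.1, 14.1, 16.5 and 28.8 RPKM. Mouse 11 stood above the other mice, which lay close together. Mrps5, whose worm relative is known for lengthened lifespan when knocked down in Caenorhabditis elegans, had 4.12, 5.53, 4.75, 4.81 and 5.43 RPKM in these old mouse brains. Its mean of 4.93 ± 0.575 RPKM lay near the lower quartile of the members.

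With the lengths that the authors used, the lowest member was Mrps34, a mitochondria-specific protein, with 33, 27, 30 and 30 counts in mice 7 to 10 and 107 in mouse 11. These counts correspond to 1.03, 0.850, 0.928, 0.906 and 2.77 RPKM, so mouse 11 alone was high. Of its 2064 exon bases on chromosome 17 (24895116 to 24897502, plus strand), 1605 (77.8%) are shared with other genes. Among them is Mapk8ip3 on the opposite strand, with 7842, 7624, 7499, 8199 and 11467 counts, also highest in mouse 11. The other is the protein-coding Nme3 on the same strand, which had 0 counts in every mouse. Since the strand setting of the counting is not given in the sources used here, reads of Mrps34 and Mapk8ip3 cannot be told apart. The level of Mrps34 is uncertain, and the part of either overlap in it was not tested. Mrps35 was next lowest in the small subunit, with 1.97 ± 0.150 RPKM. In all, 33 members share exon bases with another gene, 3 of them over more than 50% of their length, and 5 annotated pseudogenes of Mrp genes had between 0 and 4 counts per mouse.

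The median large-subunit mRNA was more abundant than the median small-subunit mRNA in 5 of 5 mice. The medians were 8.71, 9.08, 8.24, 8.15 and 9.21 RPKM over 50 large-subunit genes, against 6.43, 6.26, 5.94, 5.90 and 6.78 RPKM over 26 small-subunit genes. The log2 ratio was 0.47 ± 0.04 (SD, n = 5), or 0.48 ± 0.12 over annotated exon lengths, and ranges of single genes overlapped throughout. Proteins were also classed by whether bacterial ribosomes have a counterpart at the same place. Small-subunit proteins without one had a median of 4.10 RPKM (10 genes) and those with one 8.79 RPKM (16 genes). In the large subunit the same classes had 8.42 RPKM (20 genes) and 8.49 RPKM (30 genes). In the small-subunit class without a counterpart, Mrps34 and Mrps25 share 77.8 and 69.8% of their exon bases with other genes. The largest share in the small-subunit class with one was 23.2% (Mrps18c). The part of this overlap in the medians was not tested. Mrps18a and Mrps18b, although related to bacterial S18, were classed as without a counterpart, since Mrps18c takes that place. Mrps36 was counted in neither subunit, because its product is absent from structures of the mammalian mitochondrial ribosome and is a subunit of the 2-oxoglutarate dehydrogenase complex; it had 2.17, 2.96, 2.00, 1.71 and 4.53 RPKM, highest in mouse 11.

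By position in the large subunit, the stalk that recruits translation factors was represented by Mrpl10, Mrpl11 and Mrpl12. Mrpl12, known in human cells also to bind the mitochondrial RNA polymerase, had 11.2, 10.6, 11.1, 10.3 and 15.97 RPKM, and Mrpl10, its anchor, averaged 18.7 ± 2.75 RPKM. Mrpl11 at the stalk base averaged 8.78 ± 1.01 RPKM. The 8 proteins lining the exit tunnel ranged in mean from 1.41 RPKM for Mrpl47 to 10.4 RPKM for Mrpl44. Those between were Mrpl23 (1.95 RPKM, which would be lowest over annotated exons), Mrpl39 (8.40 RPKM), Mrpl45 (8.44 RPKM), Mrpl24 (7.25 RPKM), Mrpl22 (6.92 RPKM) and Mrpl17 (6.59 RPKM).

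The 8 proteins of the central protuberance, where the subunits face each other, ranged from 4.23 RPKM for Mrpl48 to 10.9 RPKM for Mrpl40. Between them, Mrpl46 averaged 7.92 ± 2.15 RPKM, while Mrpl18, Mrpl27, Mrpl38 and Mrpl55 lay between 10.4 and 10.8 RPKM. Mrpl58, a peptidyl-tRNA hydrolase that frees stalled ribosomes, belongs to the same region and was the steadiest of all members. It had 7.93, 8.31, 7.55, 8.23 and 7.97 RPKM, a coefficient of variation (CV) of 3.73%.

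Mammals have 3 relatives of bacterial S18. One mitochondrial ribosome carries all of them at different places, Mrps18a in the large subunit and Mrps18b and Mrps18c in the small one. Mrps18a had 8.26, 7.89, 6.94, 7.31 and 11.2 RPKM, Mrps18c had 7.59, 6.64, 6.23, 5.16 and 5.81 RPKM, and Mrps18b had 3.48, 3.20, 3.79, 3.79 and 4.63 RPKM. The order Mrps18a, Mrps18c, Mrps18b held in every mouse in these recomputed values. Mrps18a shares no exon bases with another gene, while Mrps18c shares 23.2% and Mrps18b 30.5% of its exon bases. The part of this overlap in the order was not tested. The log2 ratio of RPKM + 1 was 0.95 ± 0.18 for Mrps18a over Mrps18b, 0.61 ± 0.29 for Mrps18c over Mrps18b and 0.35 ± 0.30 for Mrps18a over Mrps18c (SD, n = 5). Sign-flip permutation of the 5 mice, exact and two-sided, gave p = 0.063 for each of the 3 pairs, also after adjustment over them. This is the smallest p that 5 mice allow, and it does not pass 0.05. The log2 ratio of Mrps18a over Mrps18c was 0.84 in mouse 11, against 0.11 to 0.43 in the other mice, and averaged 0.22 without mouse 11. GC content was 54.95% for Mrps18a and 44.72% for Mrps18c, and its part in this ratio was not tested. The exact p of this pair was 0.125 with the deposited RPKM.

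No member was called variable between mice. The spread of each gene was tested against that of genes of like expression (edgeR quasi-likelihood fit, adjusted over 16318 genes), and 0 of the 77 members passed an adjusted p of 0.05. The share of all genes tested that passed was also 0%, so the absence of calls does not set the members apart from other genes. At an unadjusted p under 0.05 there were 0 members, against 789 of all genes tested (4.84%). DESeq2's dispersion outliers included 0 members, against 0.300% of all genes tested. The smallest member p, that of Mrps34, was 0.063 (edgeR adjusted p = 0.979).

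Beside the test, the spread of the members is described without one. Log2 CPM are counts scaled to the library total and to the TMM factor of each mouse. Their median SD over the mice was 0.22 for the 77 members, against 0.30 for all genes tested. It was 0.27 for the 2507 genes with mean counts between 173 and 376, the quartiles of the members. Of the members, 57 (74.0%) lay below the median of all genes tested. With trends of GC content and exon length removed in each library, the median SD was 0.19 for the members and 0.22 for all genes tested. In RPKM the median CV was 15.1% for the members, against 20.5% for all genes tested, with 55 members under 20% and 11 over 30%.

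Besides Mrpl58, the smallest SDs of log2 CPM belonged to Mrpl3 (0.07), Mrpl9 (0.07) and Mrps17 (0.08). Mrpl3, the relative of L3 near the catalytic centre, had 12.4, 13.0, 13.7, 12.5 and 11.8 RPKM, and no mouse stood out. The largest belonged to Mrps34 (0.73), Mrpl34 (0.58), Mrps36 (0.57) and Mrpl1 (0.57). Mrpl34 had 10.2, 10.2, 8.21, 11.7 and 22.6 RPKM. In 3 of these 4 genes mouse 11 was the highest, and in Mrpl1 it was the lowest.

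**Figure D2:**
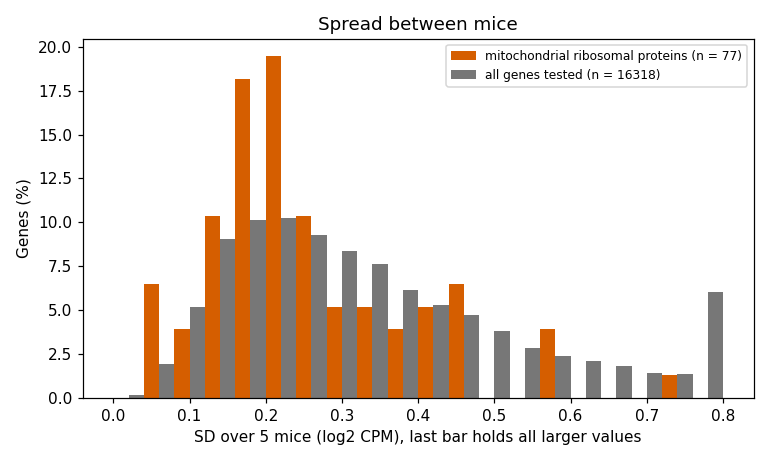
Share of genes (%) by SD of log2 CPM over the 5 mice, in bins of equal width with the last bar holding all larger values; orange bars are the 77 members, grey bars all 16318 genes tested. Member SDs have a median of 0.22, against 0.30 for all genes tested, and the largest is 0.73.

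Mouse 11 was the highest mouse for more members than any other. Of the 77 members, 42 (54.5%) had their highest log2 CPM in mouse 11, against 37.6% of all genes tested. Mice 7, 8, 9 and 10 were highest for 11, 13, 6 and 5 members (14.3, 16.9, 7.79 and 6.49%), against 25.0, 12.3, 14.1 and 11.1% of all genes tested. Mouse 11 was lowest for 15 members (19.5%), against 32.7% of all genes tested. The mean log2 CPM of the members deviated from the mean of the mice by -0.02, 0.01, -0.08, -0.09 and 0.18, an SD over mice of 0.109.

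Beside this, levels in mouse 11 followed the GC content of the transcripts. Across the 77 members, Spearman's rank correlation between GC content and the deviation of a mouse was -0.26, -0.37, -0.47, -0.24 and 0.64, against -0.43, -0.40, -0.35, -0.03 and 0.72 across all genes tested. These are descriptions over genes of the same 5 libraries, with no test. Each deviation is taken from the mean of all 5 mice, so a high mouse 11 lowers the others. The 5 correlations are therefore not separate observations. Among the 26 members richest in GC (52.4 to 60.8%), 21 were highest in mouse 11 and 0 were lowest in it, with a median deviation of 0.47. Among the 26 poorest in GC (39.8 to 47.6%), 6 were highest and 11 were lowest in mouse 11, with a median deviation of -0.08.

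The trends with GC content and exon length were then removed in each library. In these values 37 members (48.1%) were highest in mouse 11, against 28.9% of all genes tested. Of the 37, only 25 were among the 42 that were highest in it before. The mean deviation of the members in mouse 11 was then 0.14, and those of mice 7 to 10 were -0.03, -0.03, -0.04 and -0.05. The median deviation in mouse 11 was 0.09 for the members richest in GC and 0.21 for the poorest. Spearman's rank correlation between GC content and this deviation was -0.26 over the members, so its direction was reversed. In this setting 4 of the 77 members had an unadjusted edgeR p under 0.05, a share close to the 5.50% of all genes tested. They were Mrpl57 (0.0054), Mrps14 (0.0078), Mrps30 (0.0133) and Mrps36 (0.0486). Each was highest in mouse 11, and none passed adjustment (smallest adjusted p = 0.71). All 4 are poor in GC (44.58, 42.13, 42.19 and 46.52%). Their deviations in mouse 11 were 0.77, 0.33, 0.23 and 0.90 before the trends were removed and 1.11, 0.76, 0.70 and 1.11 after. The part of the trend removal in these p-values was not tested.

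In 8 of the 77 members (10.4%), 1 mouse lay apart from the others by Dixon's criterion on log2 CPM, against 11.2% of all genes tested. Mouse 11 was the high one in 6 of them, Mrps34, Mrps24, Mrpl12, Mrps12, Mrpl55 and Mrpl38, each with a GC content of at least 54.65%. The others were Mrpl42, with mouse 7 high, and Mrps15, with mouse 9 low. Mouse 11 was highest for 37.6% of all genes tested. How often it was the mouse set apart among all genes was not counted, so 6 of 8 has no background share. With trends removed the number was 3, against 6.50% of all genes tested, and none of the 3 was among the 8.

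**Figure D3:**
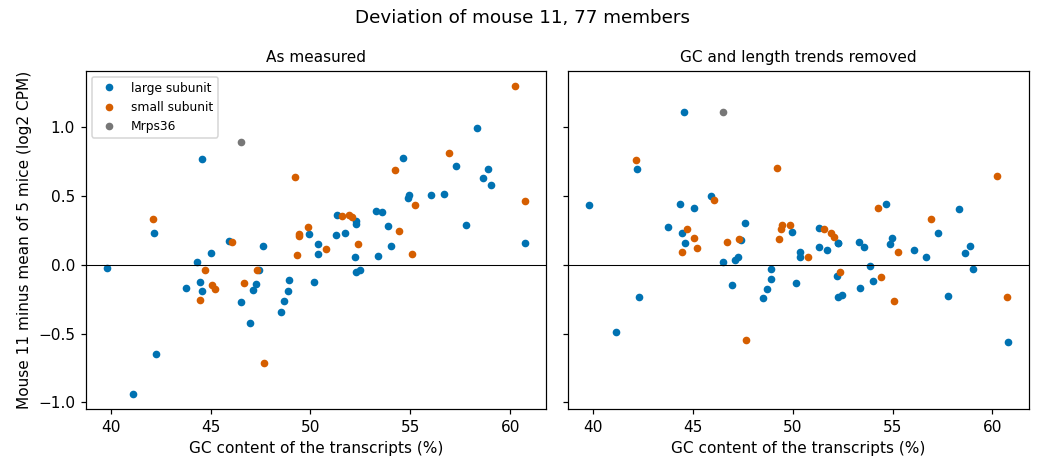
Deviation of mouse 11 from the mean of the 5 mice (log2 CPM) against the GC content (%) of the transcripts for the 77 members, as measured on the left and with GC and length trends removed on the right; blue points are large-subunit genes, orange points small-subunit genes, grey is Mrps36. The points rise with GC content on the left (rank correlation 0.64) and fall weakly with it on the right (rank correlation -0.26), where most lie above 0.

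Cell type markers also differed in mouse 11, but not as whole lists in 1 direction. The summed CPM of the 5 neuron markers was 3870 in mouse 11, against 4604 to 5198 in the other mice. That sum was carried by Snap25 and Syt1, whereas Rbfox3 had 45.4 RPKM in mouse 11, against 24.6 to 26.7 RPKM, and Tubb3 had 181 RPKM, against 121 to 134 RPKM. No direction for neurons can therefore be read from the sum. The astrocyte sum was also lowest in mouse 11 (4691, against 5552 to 6407), again with members on both sides.

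Sums of the 5 markers each were highest in mouse 11 for microglia (384, against 328 to 373), endothelium (382, against 282 to 336), erythroid cells (173, against 54.4 to 155) and choroid plexus (719, against 468 to 589). In RPKM, mouse 11 was highest for Cx3cr1, Csf1r, C1qa, Cldn5, Slc2a1, Ttr, Folr1, Kl, Clic6, Hba-a1, Hba-a2 and Hbb-bs. It was lowest for Ctss, P2ry12, Pecam1, Itm2a and Prlr, and Hbb-bt and Alas2 were highest in mouse 8. No direction for these cell types can therefore be read from the sums. The oligodendrocyte sum (5667) lay within those of the other mice. The part of these differences and of GC content in the higher member levels was not tested.

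Cytosolic ribosomal proteins and subunits of respiratory complex I, which is assembled from nuclear and mitochondrial products, served as comparisons. The median deviation in mice 7 to 11 was -0.04, 0.01, -0.07, -0.07 and 0.17 for the 77 mitochondrial ribosomal proteins. It was 0.15, 0.14, -0.12, -0.33 and 0.20 for 76 cytosolic ribosomal proteins and -0.01, 0.14, -0.11, -0.15 and 0.31 for 37 complex I subunits, against -0.03, 0.01, -0.01, 0.00 and 0.03 for all genes tested. All 3 lists were higher in mouse 11 than in mice 9 and 10. The mitochondrial ribosomal proteins had the narrowest range of the 3. Unadjusted edgeR p was under 0.05 for 0 of 77 members, against 13 of 76 cytosolic ribosomal proteins and 4 of 37 complex I subunits. Among all genes tested the share was 4.84%. With GC and length trends removed, unadjusted edgeR p was under 0.05 for 4 of 77 members, a share close to the 5.50% of all genes tested. The difference between lists was not tested.

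**Figure D4:**
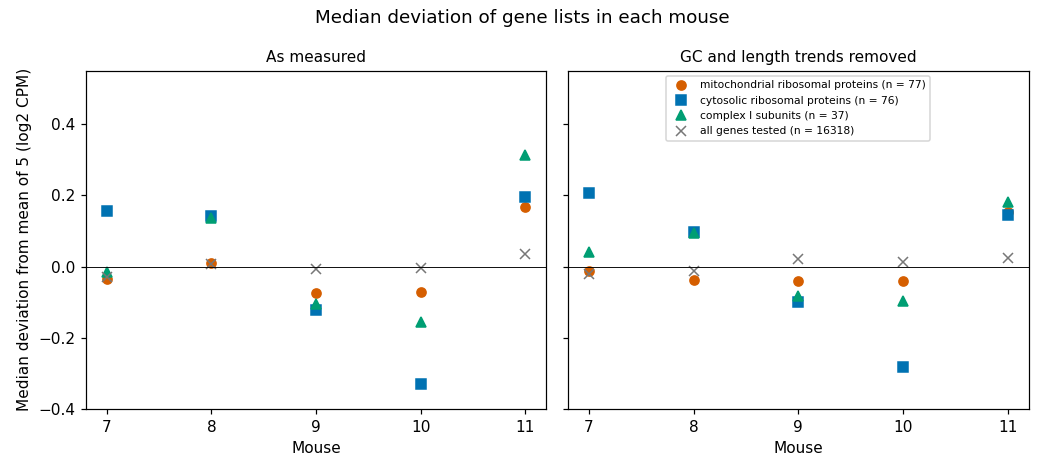
Median deviation of each gene list from the mean of the 5 mice (log2 CPM) in each mouse, as measured on the left and with GC and length trends removed on the right; orange circles are mitochondrial ribosomal proteins, blue squares cytosolic ribosomal proteins, green triangles complex I subunits and grey crosses all genes tested. In mouse 10 the cytosolic list lies at -0.33 and the mitochondrial one at -0.07, while in mouse 11 they lie at 0.20 and 0.17.

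Other components of mitochondrial translation were also expressed, and 0 genes of each list passed the adjusted threshold. Of 5 proteins of the mitochondrial ribosome with other names, the highest mRNA was that of Chchd1 (26.7 ± 4.33 RPKM) and the lowest that of Gadd45gip1 (2.54 ± 1.10 RPKM). Gadd45gip1 had 2.32, 2.32, 1.74, 1.87 and 4.45 RPKM, again with mouse 11 high. Of 15 translation factors, the elongation factor gene Gfm1 was highest (13.2 ± 1.49 RPKM) and the release factor gene Mtrf1l lowest (1.55 ± 0.418 RPKM).

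The translation GTPase gene Guf1 had 4.63, 1.99, 2.41, 1.81 and 1.45 RPKM, with mouse 7 high (edgeR adjusted p = 0.979). Of 22 assembly factors, Ngrn was highest (18.9 ± 1.11 RPKM) and Gtpbp10 lowest (0.542 ± 0.153 RPKM), and Fastkd2 had the same high mouse 7 as Guf1, with 3.79, 1.94, 1.66, 1.69 and 0.973 RPKM (edgeR adjusted p = 0.979). Of 20 genes for charging mitochondrial tRNAs, Gatc, part of a glutamyl-tRNA amidotransferase, was highest (14.3 ± 2.19 RPKM) and the glutamyl-tRNA synthetase gene Ears2 lowest (1.11 ± 0.195 RPKM). The rRNAs that the members bind, mt-Rnr1 and mt-Rnr2, averaged 7220 ± 1910 and 7220 ± 1440 RPKM, and 7 of 13 mitochondrial mRNAs had a mean count of at least 10. The others were listed at 0 in every mouse, except for 1 count of mt-Atp6 in mouse 9.

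The gene bodies and promoters of the members shared features that the rule did not use. The median coding length was 582 bases for the members, against 1440 bases for the 14242 protein-coding genes tested, and the median exon length was 2394 bases, against 4571. Median GC content was 50.4% in both. Another protein-coding gene started on the opposite strand within 1000 bases upstream for 18 of the 78 members (23.1%). The share was 6.81% over all 21620 protein-coding genes, tested or not, and was not computed for the tested genes alone.

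Promoters of 300 bases, from 250 before to 50 after the start, were taken from RefSeq (GRCm38.p6). They covered 69 of the 78 members with 75 windows, and were compared with all 32851 windows of the table. Short cores of factors known to drive nuclear genes for mitochondrial proteins were searched on both strands. The ETS core CCGGAAG, bound by GABP, which is also called NRF-2, was present in 26 member windows (34.7%), against 8.86% of all windows and 11.6% of the 21263 windows of coding genes. The NRF1 core GCATGCG was present in 8 (10.7%), against 3.58% of all windows. The YY1 core AAGATGG was present in 13 (17.3%), against 6.34%, and the TATA box TATAAA in 5 (6.67%), against 13.6%.

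Member windows were also rich in CpG, with a median of 7 per 100 bases, against 4.33 in windows of coding genes and 2.33 in all windows. In windows of coding genes with at least 7 CpG per 100 bases, the ETS core was found in 36.6% of 41 member windows, against 20.1% of all 7151 such windows. The NRF1 core was found in 12.2%, against 7.44%, the YY1 core in 14.6%, against 6.38%, and the TATA box in 2.44%, against 3.62%. A match is a description of the letters and not a measured binding site, and where there is no match these letters are merely not in the window.

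The 100 bases before the start are shown for 3 members, chosen after the matches were seen, because they carry the cores in different combinations: Mrpl22, an exit-tunnel protein, has ETS and NRF1 cores (chr11:58171564-58171663), Mrpl52 has YY1 and ETS cores (chr14:54426809-54426908) and Mrpl9, one of the steadiest members, has the NRF1 core alone (chr3:94443236-94443335). All 3 lie on the plus strand and read 5′ to 3′. Capitals mark the cores on either strand, and in Mrpl22 and Mrpl9 the NRF1 core and its reverse complement overlap in 1 palindrome.
Mrpl22: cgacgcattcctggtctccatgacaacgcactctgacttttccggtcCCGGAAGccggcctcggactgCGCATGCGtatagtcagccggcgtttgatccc
Mrpl52: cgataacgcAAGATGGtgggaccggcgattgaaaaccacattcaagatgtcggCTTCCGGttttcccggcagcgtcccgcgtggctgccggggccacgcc
Mrpl9: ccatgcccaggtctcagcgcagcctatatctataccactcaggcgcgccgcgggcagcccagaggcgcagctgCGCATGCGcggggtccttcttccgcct

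Levels of the 3 genes were close to one another. Mrpl22 averaged 6.92 ± 0.808 RPKM, Mrpl52 averaged 5.36 ± 1.36 RPKM and Mrpl9 averaged 7.83 ± 0.558 RPKM. In mice 7 to 11, Mrpl9 had 8.28, 7.98, 7.96, 8.07 and 6.86 RPKM, and Mrpl52 had 5.04, 6.33, 4.26, 3.99 and 7.18 RPKM. The ranges of all 3 genes overlapped.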

How the data were processed

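Brain RNA of the 5 mice was sequenced, and the authors deposited whole-number counts and RPKM per Ensembl gene. The submitters' processing notes name STAR 2.4.1d, CASAVA 1.7 and featureCounts 1.4.6-p4, with no role or order, and the genome GRCm38. The annotation release, strand setting and filters are not given in the sources used here. Per the file headers, every column matched 1 sample. The deposited RPKM were divided by the totals of the 5 libraries in turn from gene to gene: with each library's own total, 0 of 12729 genes checked gave 1 length within 1%, and all 12729 did with the totals in turn. RPKM were therefore recomputed from the counts, each library's own total and the length implied by the deposited values.

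The 16318 genes whose mean count reached 10 were tested in edgeR 4.0.16 (R 4.3.3) with an intercept and TMM scaling. Each dispersion was compared with a robust F distribution along mean expression (limma 3.58.1), and p-values were adjusted by Benjamini-Hochberg and read at 0.05. The default quasi-likelihood fit of this version was taken as main after its legacy form had been seen. The test was checked on simulated data, with rises in 1 mouse larger than the 3.26-fold range of Mrps34, the widest among the members. Whether it finds smaller differences was not examined. Log2 CPM used a prior count of 1. GC and length trends were removed by regression on natural splines with 5 degrees of freedom each in every library. Dixon's criterion set a mouse apart where more than 0.71 of the range of the 5 values separated it from the next. DESeq2 1.42.0 gave dispersion outliers and other size factors.

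GENCODE M21 gave symbols for 47224 genes, coordinates, lengths and GC content. Limits from a count of 0 cover counting error only. Named genes were those called or set apart, the 6 highest and 6 lowest levels, the 4 largest and 4 smallest SDs, the S18, stalk, tunnel and protuberance proteins, Mrps5, Mrps12 and Mrps36, the highest and lowest of each pathway list, and markers; others were chosen after their values were seen. The members and all lists (190 genes) were chosen with earlier results of these data known.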

Additional observations from a re-analysis of the deposited data

Results flagged for a closer look

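In 8 of the 77 members, 1 mouse lay so far from the other mice that its gap to the nearest exceeded 0.71 of the whole range in log2 CPM, against 11.2% of all genes tested; chance alone sets about 1 in 20 genes apart. Mouse 11 was high in 6 of them: Mrps34 (gap 0.848 of the range), Mrps24 (0.825), Mrpl12 (0.812), Mrps12 (0.763), Mrpl55 (0.735) and Mrpl38 (0.726). All 6 have a GC content of at least 54.65%. Mouse 11 was highest for 37.6% of all genes tested, and how often it was the mouse set apart among them was not counted. Mrps24, a small-subunit protein, had 9.83, 9.75, 8.88, 9.31 and 13.4 RPKM in mice 7 to 11. Mrpl55 had 8.20, 9.80, 7.96, 9.95 and 16.6 RPKM, and Mrpl38 had 8.65, 10.4, 9.94, 9.44 and 15.8 RPKM. In each of these genes mice 7 to 10 lay together.

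Mrpl42 was set apart by a high mouse 7 (0.886), and Mrps15, a relative of bacterial S15, by a low mouse 9 (0.723), with 10.03, 10.2, 8.75, 10.01 and 9.87 RPKM. After GC and length trends were removed, none of the 8 genes remained above 0.71, and 3 others were set apart: Mrpl10, Mrps16 and Mrpl46, against 6.50% of all genes tested.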

How the results depend on the processing

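No member was called variable under any of the 14 alternatives, which included DESeq2 size factors, no low-count filter and each mouse left out in turn; with no filter 60 of 28335 genes in all were called, against 0 of 16318. The members' mean was highest in mouse 11 with deviations from 0.12 (library size only) to 0.181, and 34 to 42 members were highest in it with all mice kept. The SD over mice of that mean, 0.109, lay between 0.0475 (without mouse 11) and 0.12 with 1 mouse left out, and was 0.0127 without mouse 11 and with GC and length trends removed. Members with 1 mouse apart, 8 in all, numbered 11 with DESeq2 size factors, 10 with no low-count filter, 9 with a mean count of at least 50 and 3 with trends removed. They numbered 3 (without mouse 11) to 8 with 1 mouse left out, where 4 values need a gap over 0.83 of the range, and 0 without mouse 11 and with trends removed. The last setting was chosen after seeing the data. The cause of these shifts was not tested.

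The log2 ratio of large- to small-subunit medians was 0.425 with the deposited RPKM and 0.377 from mean log2 RPKM, and 0.455 to 0.479 with 1 mouse left out. It was 0.483 with annotated exon lengths, a setting chosen after seeing the data. The median member level, averaged over the mice, was 7.85 RPKM and became 6.82 with annotated exon lengths. The mean S18 ratios kept their direction under all settings run. Mrps18a over Mrps18c was 0.224 without mouse 11, against 0.346, and had an exact p of 0.125 with the deposited RPKM; with 4 mice the smallest exact p is 0.125. No paired comparison between groups was possible because there is 1 group, and the S18 test paired genes within mice. Depth limits members of few counts, such as Mrps34, most.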
